A study of Mus musculus with 9 samples.

Results

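Loss of the second copy of Nkx2-9 was examined by comparing E14.5 midbrains with 2 Nkx2.9LacZ alleles with midbrains that carried 1. The comparison used 6 of the 9 RNA-sequencing libraries of the series, 3 from Nkx2.9LacZ/LacZ homozygotes and 3 from Nkx2.9LacZ/+ heterozygotes, and was described over the 16993 of 51912 annotated genes whose mean normalized read count over all 9 libraries was at least 5. The 3 Nkx2.9+/+ libraries entered the same model, and their values are given for the genes described in most detail. Every library was a pool of micro-dissected midbrains from C57Bl/6 back-crossed E14.5 embryos, of unstated sex. The LacZ allele is constitutive: a nuclear LacZ stands in place of the first exon behind the intact 5′ end of the gene, so heterozygotes are reporter animals with 1 functional copy and not wild-type controls, and homozygotes carry no copy with exon 1. The title of the series calls the tissue cortical, whereas the sample labels and the study describe midbrain, and the midbrain genes En1, En2, Pax7, Otx2, Gata3 and Nr4a2 were well above the minimum in each of the 9 libraries.

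Nkx2-9 encodes a homeodomain transcription factor of the NK2 class that is induced in the ventral neural tube by Sonic hedgehog, next to its close relative Nkx2-2. Factors of this class pattern the ventral neural tube. The ventral midbrain gives rise to the meso-diencephalic dopaminergic (mdDA) neurons and to oculomotor and red nucleus neurons. Serotonergic neurons arise across the isthmus, in the hindbrain. NK2-class homeodomains bind a core with the letters AAGTG.

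Nkx2-9 lies on the minus strand of chromosome 12 (GRCm38, chr12:56611389-56613284), with exon 1 at chr12:56612912-56613284 and exon 2 at chr12:56611389-56612279. The sequence just upstream of the start is shown because it is kept on the LacZ allele and is therefore present on both chromosomes in all 3 genotypes, once on a LacZ copy and once on an intact copy in heterozygotes. It is set beside the upstream sequences of Slc8a2 and Glyctk, a gene lower and a gene higher in homozygotes, and beside Snora2b, a small nucleolar RNA among the leading genes. Each promoter run gives the 250 bases before the RefSeq start on GRCm38.p6, 5′ to 3′ in the direction of the gene, with a match to TNAAGTG on either strand in capitals; in Snora2b the capitals mark the ACA box near the 3′ end, the mark of the class of small RNAs that guide pseudouridylation.
Nkx2-9, chr12:56613285-56613534, minus strand: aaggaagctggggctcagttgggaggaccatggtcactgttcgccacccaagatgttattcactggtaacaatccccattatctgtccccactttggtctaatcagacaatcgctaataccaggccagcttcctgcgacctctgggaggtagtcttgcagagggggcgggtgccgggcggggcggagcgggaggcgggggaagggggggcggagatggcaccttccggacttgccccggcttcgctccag
Slc8a2, chr7:16129576-16129825, plus strand: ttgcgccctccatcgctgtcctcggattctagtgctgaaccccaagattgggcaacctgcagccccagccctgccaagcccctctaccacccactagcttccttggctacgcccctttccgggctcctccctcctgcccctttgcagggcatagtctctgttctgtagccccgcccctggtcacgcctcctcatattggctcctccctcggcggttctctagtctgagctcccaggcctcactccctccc
Glyctk, chr9:106158139-106158388, minus strand: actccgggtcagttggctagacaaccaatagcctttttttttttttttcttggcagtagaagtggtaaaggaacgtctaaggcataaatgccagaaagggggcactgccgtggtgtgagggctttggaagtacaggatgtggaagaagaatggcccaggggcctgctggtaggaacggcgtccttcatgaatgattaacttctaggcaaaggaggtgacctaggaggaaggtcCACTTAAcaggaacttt
Snora2b, chr15:98526346-98526482, minus strand, within Kansl2: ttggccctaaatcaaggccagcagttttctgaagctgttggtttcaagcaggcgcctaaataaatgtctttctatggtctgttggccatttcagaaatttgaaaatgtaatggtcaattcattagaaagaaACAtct
The Nkx2-9 and Slc8a2 windows held no match, and the Glyctk window held 1, beginning 17 bases before the start on the opposite strand.

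Nkx2-9 itself was near the detection limit. Its normalized counts were 3.01, 5.49 and 2.58 in homozygotes, 0, 5.98 and 3.26 in heterozygotes and 0, 1.40 and 1.47 in the wild type. The homozygous and heterozygous values overlapped, and the log2 difference of 0.55 ± 0.78 (SE, n = 3 and 3) had an exact permutation p of 1.0. The read counts cover both exons, exon 2 is outside the replaced part, and the 9 libraries held at most 7 reads each, so this gene does not check the genotype labels. Its mean was 3.69 in the columns headed as homozygous and 0.959 in those headed as wild type. The direction of every difference below therefore rests on the column headers.

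The libraries differed in depth and in sex-linked transcripts. Total assigned reads were 4522261 to 5627092 in homozygotes and 2584074 to 5241154 in heterozygotes, where the shallowest library, in column 4, gave 1.63 normalized counts per read. Xist, the RNA of the inactive X chromosome, had 4633, 4607 and 5182 normalized counts in homozygotes against 79.9, 14.52 and 2929 in heterozygotes. Together, Eif2s3y, Uty, Ddx3y and Kdm5d, all on the Y chromosome, summed to 2.26, 1.83 and 0 in homozygotes and to 606.2, 1058 and 3.26 in heterozygotes. Thus 2 heterozygous libraries held Y-linked transcripts at high levels and no homozygous library did, while the wild-type sums were 0, 505.2 and 1075. The sex-linked difference and the second LacZ allele cannot be told apart within these libraries.

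**Figure D1:**
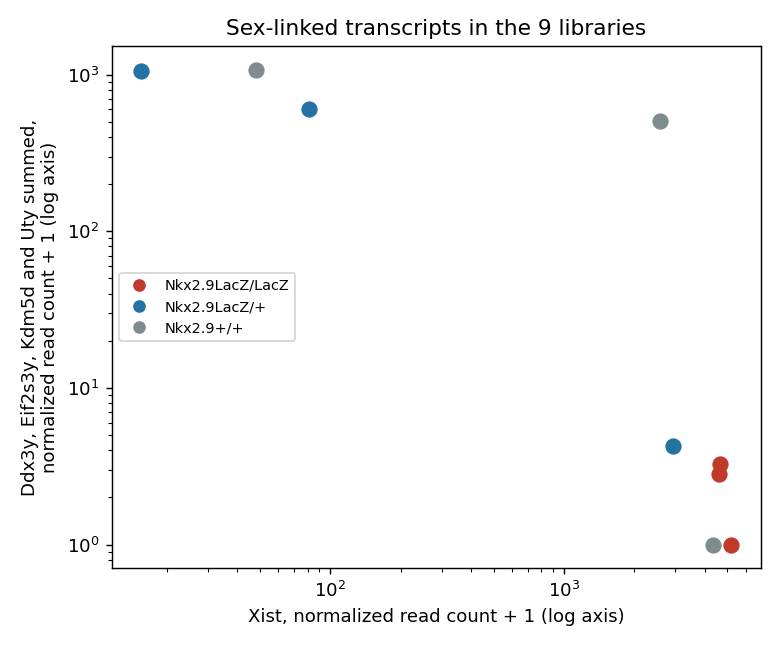
Normalized read counts of Xist (x axis, log scale) against the sum of the 4 Y-linked genes (y axis, log scale), 1 added to each, with 1 point per library coloured by genotype. The 3 homozygous libraries lie at the lower right with sums of 0 to 2.26, whereas 2 heterozygous libraries lie at the upper left with sums of 606.2 and 1058.

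Across the 16993 genes no single gene passed an adjusted p of 0.05 (0 genes, 0.0%) in limma, and the smallest adjusted p was 0.999. At an unadjusted p of 0.05, 449 genes (2.64%) differed, of which 253 (1.49%) were higher and 196 (1.15%) lower in homozygotes; at that level 849.7 of 16993 genes would be counted by the level of the test alone. Without overlap between the 3 homozygous and the 3 heterozygous values were 785 higher genes (4.62%) and 695 lower genes (4.09%), 1480 in all (8.71%). edgeR and DESeq2 on the recovered reads found 451 and 323 genes at an unadjusted p under 0.05, of which 373 and 293 were among the 449, and 0 genes each at an adjusted p under 0.05. All differences below are therefore values of single genes with an unadjusted p, and none is a called change. The exact permutation test of 3 against 3 libraries cannot give a p under 0.10.

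**Figure D2:**
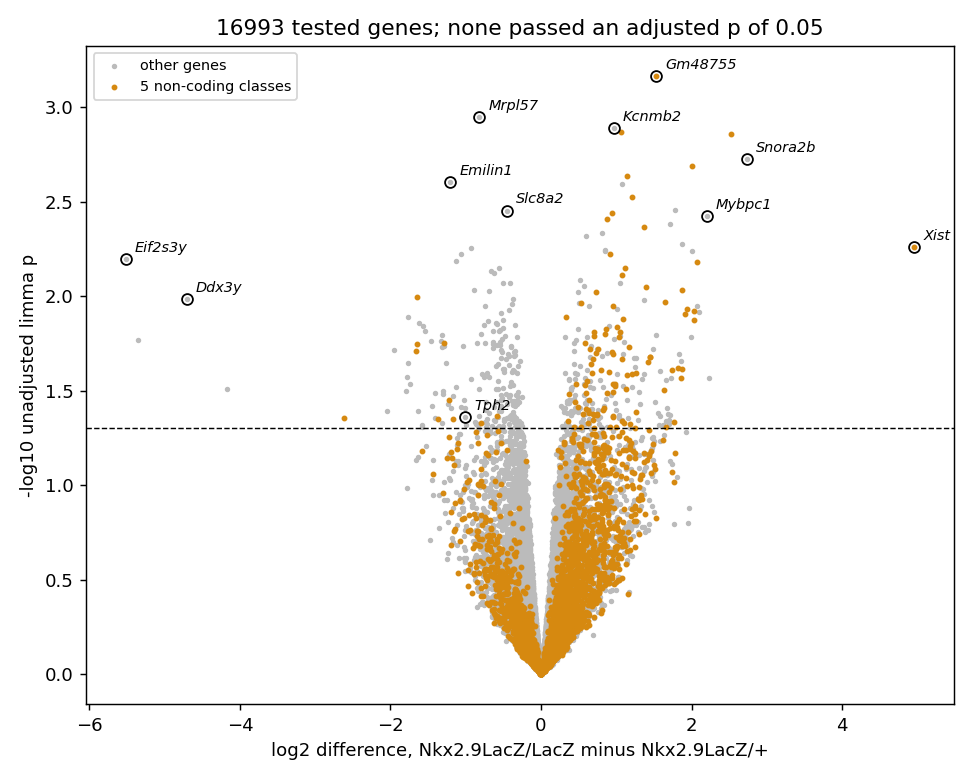
Log2 difference between homozygotes and heterozygotes (x axis) against −log10 of the unadjusted limma p (y axis) for 16993 genes, with the 5 non-coding classes in orange and the dashed line at a p of 0.05. The sex-linked Xist and Eif2s3y lie farthest to the right and left at 4.96 and −5.52, and the orange points above the line lie mostly on the right.

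When each of the 6 libraries was left out in turn, between 293 and 740 genes stood under the unadjusted limit, with 0 left after adjustment. The counts were 293 and 296 without the homozygous columns 2 and 3, and 740 and 687 without the heterozygous columns 5 and 6. Of the 449 genes, 185 to 294 kept a p under 0.05 in a given omission, and none of the 449 changed sign in any. Only 52 kept it in all 6 omissions, 36 higher and 16 lower, and 25 of these 52 were protein-coding (11 higher and 14 lower). The genes described next come mainly from these 52. Homozygous libraries differed from each other by a median of 0.17 to 0.18 on the log2 scale over genes with a mean of at least 20, heterozygous libraries by 0.16 to 0.35, and libraries of unlike genotype by 0.17 to 0.33. The upper ends were those of column 4, since columns 5 and 6 differed by 0.16 and each differed from the homozygous libraries by 0.17 to 0.18.

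The 10 leading genes in each direction were those of smallest unadjusted limma p among genes with a symbol whose groups did not overlap. Their lack of overlap and their exact permutation p of 0.10 therefore follow from the choice. Of the 10 leading genes that were higher in homozygotes, 1 was protein-coding. This was Kcnmb2 (chr3:31902507-32200180), an auxiliary beta subunit of the large-conductance calcium-activated potassium channel, with 48.2, 53.0 and 68.7 normalized counts in homozygotes and 22.8, 27.3 and 35.9 in heterozygotes. The groups did not overlap, and the log2 difference was 0.97 ± 0.25 (SE; unadjusted limma p = 0.00129, exact permutation p = 0.10), a ratio of 1.95 with a 95% interval of 1.36 to 2.81. The wild-type values of Kcnmb2, 54.3, 48.4 and 55.2, lay within the homozygous range. Leaving out each library gave 0.82 to 1.13 with a p of at most 0.011, but with the normalized count of Xist as a covariate the difference was 0.71 and its p over 0.05. Under that covariate 7 of the 10 leading higher genes and 1 of the 10 leading lower genes kept a p under 0.05. All 10 higher and 9 of the 10 lower genes kept their sign. The covariate partly shares the genotype split, with 4607 to 5182 in all 3 homozygous libraries. Nor did it always follow the Y-linked sum. Xist and that sum were 2929 and 3.26 in column 6, and 2580 and 505.2 in column 8. Values under the covariate therefore cannot separate sex from genotype.

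The leading entry overall was Gm48755 (chr10:9546246-9547521), a transcript model annotated as TEC, that is, to be experimentally checked. It had 27.1, 23.8 and 23.2 normalized counts in homozygotes, 6.52, 12.8 and 5.71 in heterozygotes and 28.4, 23.9 and 32.4 in the wild type. The log2 difference was 1.53 ± 0.36 (SE; unadjusted limma p = 0.000681, exact permutation p = 0.10), and here too the heterozygotes were the group that stood apart. Gm37382, a TEC entry inside Plcl1, had 11.3, 13.7 and 11.2 against 0, 1.71 and 3.26, a log2 difference of 2.52 ± 0.65 (SE). Gm26638, a transcript in an intron of Tmem178b, had 22.6, 21.04 and 29.2 against 1.63, 11.1 and 6.53, a log2 difference of 2.01 ± 0.54 (SE). Their host genes differed less, by 0.29 ± 0.17 (SE) for Plcl1 and 0.06 ± 0.12 (SE) for Tmem178b.

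Transcripts antisense to coding genes formed another part of this set. Gm15342, opposite the chromatin reader gene Brwd1, had 36.9, 35.7 and 42.9 in homozygotes and 16.3, 20.5 and 17.1 in heterozygotes (log2 difference 1.06 ± 0.27, SE). Gm16958, opposite the ankyrin gene Ank2, had 24.1, 32.0 and 40.4 against 11.4, 17.1 and 13.1 (1.15 ± 0.32, SE). 4921531C22Rik, opposite Taf4, which encodes a subunit of the general transcription factor TFIID, had 24.8, 23.8 and 21.5 against 9.78, 7.68 and 11.4 (1.21 ± 0.34, SE). None of the 3 pairs of values overlapped. The coding genes on the other strand differed by 0.15 ± 0.11 (Brwd1), −0.02 ± 0.12 (Ank2) and 0.22 ± 0.15 (Taf4), all SE. Because the counting is not stated to use strand, reads of each antisense entry and of its partner cannot be fully separated. The processed pseudogenes Gm7327 and Gm14020, the second of them opposite Frmd5, were higher by 1.08 ± 0.30 and 1.78 ± 0.52 (SE) and may share reads with their parent genes.

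Snora2b, whose sequence is shown above, had 10.5, 37.5 and 5.15 normalized counts in homozygotes and 0, 1.71 and 2.45 in heterozygotes. Although the groups did not overlap, the homozygous values spread from 5.15 to 37.5, and the log2 difference of 2.73 ± 0.73 (SE) was 2.001 in the lowest omission. Its host gene Kansl2, a subunit of a histone acetyltransferase complex, differed by −0.04 ± 0.16 (SE). Of the 38 tested members of a list of spliceosomal and nucleolar small RNAs, Snora2b alone had a p under 0.05, and among all 69 annotated snoRNAs tested 3 were higher and 1 lower, beside 1.49% and 1.15% of all genes. The list median was −0.18 with all libraries and from −0.40 (without column 1) to 0.07 (without column 3 or column 4) in the omissions.

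**Figure D3:**
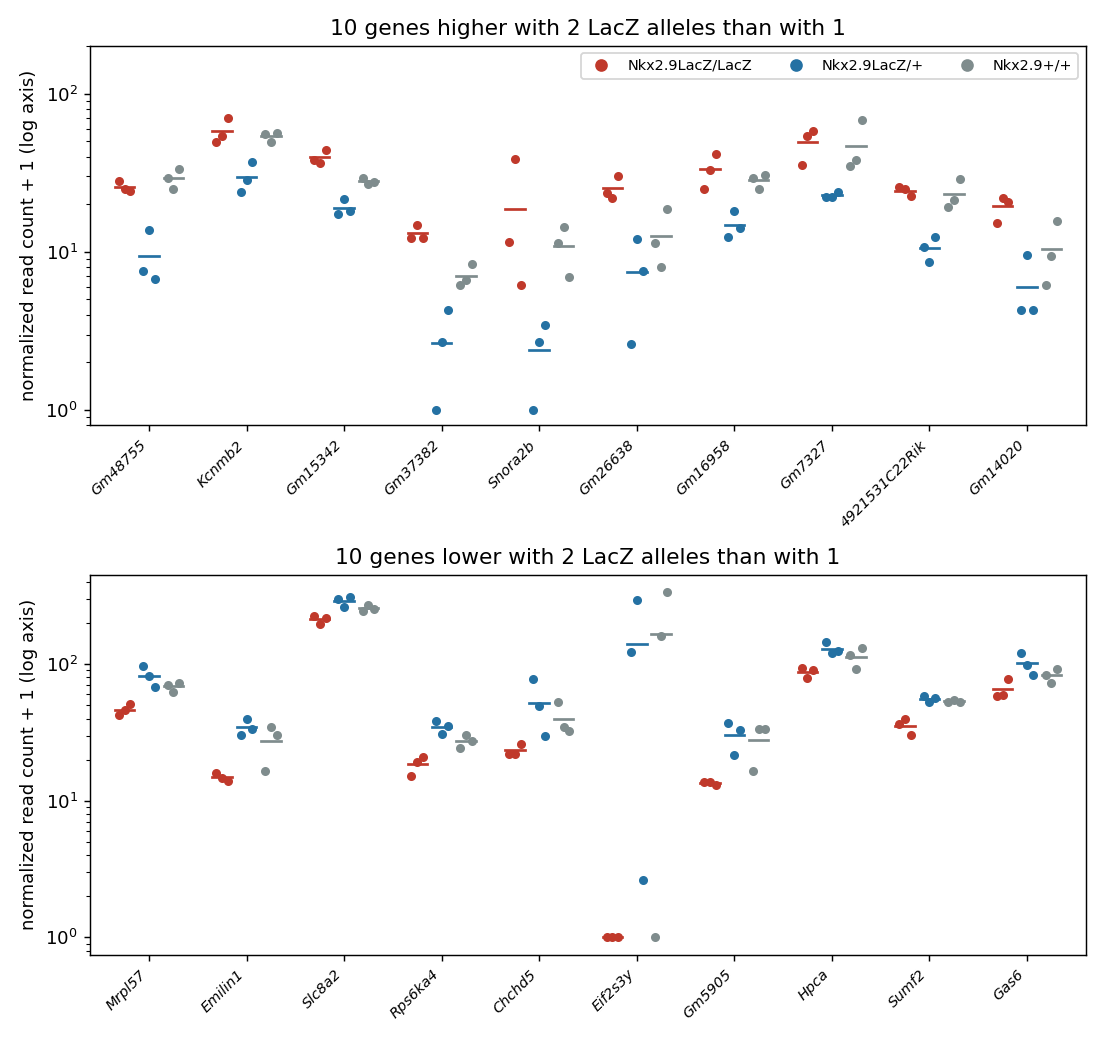
Normalized read counts plus 1 (y axis, log scale) of the 10 leading genes higher (upper panel) and lower (lower panel) in homozygotes, with 1 point per library and a bar at each group mean. Homozygous and heterozygous points do not overlap in any of the 20 genes, which is how they were selected, and the wild-type points lie on either side or between.

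The 10 leading genes that were lower in homozygotes were mostly protein-coding. Mrpl57 (chr14:57826234-57829296), a protein of the large subunit of the mitochondrial ribosome, had 41.4, 44.8 and 49.8 normalized counts in homozygotes and 96.2, 81.1 and 66.9 in heterozygotes. The groups did not overlap and the log2 difference was −0.82 ± 0.21 (SE; unadjusted limma p = 0.00113, exact permutation p = 0.10), a ratio of 0.567 with a 95% interval of 0.419 to 0.768. The wild-type values of 69.8, 61.8 and 72.1 lay above all 3 homozygous values. Chchd5, a small protein of the mitochondrial intermembrane space, had 21.1, 21.04 and 24.9 in homozygotes against 76.6, 48.7 and 28.6 in heterozygotes, a wide spread in which column 4 was the highest (log2 difference −1.06 ± 0.33, SE; −0.72 in the weakest omission).

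Emilin1 (chr5:30913402-30921277), a glycoprotein of elastic fibres in the extracellular matrix, had 15.1, 13.7 and 12.9 in homozygotes and 29.3, 38.4 and 32.6 in heterozygotes, with 15.5, 33.7 and 29.4 in the wild type (log2 difference −1.21 ± 0.33, SE). Slc8a2, the neuronal sodium-calcium exchanger NCX2, had 222.8, 196.6 and 216.4 against 299.9, 261.3 and 311.6, the smallest SE of the 10 (log2 difference −0.45 ± 0.13, SE). Hpca, the neuronal calcium sensor hippocalcin, had 92.6, 78.7 and 90.2 against 143.4, 119.5 and 123.2, with 116.4, 90.5 and 130.3 in the wild type (−0.56 ± 0.18, SE). Gas6, the secreted ligand of the TAM family of receptor tyrosine kinases, had 57.2, 58.5 and 77.3 against 120.6, 98.2 and 82.4, with 82.8, 71.6 and 91.3 in the wild type (−0.63 ± 0.21, SE). In each of these genes all homozygous values lay below all heterozygous ones, and each kept an unadjusted p under 0.05 in the 6 omissions. With the Xist count as a covariate, however, only Slc8a2 kept it (−0.51). Emilin1 was then −0.73 with an unadjusted limma p of 0.172, against 0.00249 without the covariate (exact permutation p = 0.10). Under the covariate Hpca was −0.41 and Gas6 −0.39. Rps6ka4, a kinase that acts on chromatin and transcription factors downstream of MAP kinases, differed by −0.92 ± 0.29, Sumf2, which is related to the sulfatase-modifying enzyme, by −0.67 ± 0.22, and the processed pseudogene Gm5905 by −1.13 ± 0.36 (all SE).

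The remaining lower gene, Eif2s3y, is the Y-linked copy of a subunit of the translation initiation factor eIF2. It had 0 reads in all 3 homozygous libraries and 122.2, 294.6 and 1.63 normalized counts in heterozygotes. With a floor of 3 reads over the group (0.837 normalized counts), homozygotes were at least 167-fold (166.7) below the heterozygous mean of 139.5. That mean rested on columns 4 and 5, since column 6 had 1.63. Ddx3y, Kdm5d and Uty, which encode a Y-linked RNA helicase and a pair of histone demethylases, had at most 1.83 normalized counts in any homozygous library, and the 4 tested members of the Y-linked list had an unadjusted p under 0.05 (0 higher, 4 lower, median log2 difference −5.03, also with Eif2s3y at its bound, and −7.08 to −3.66 in the omissions). With Xist as a covariate the median was 2.57, and Kdm5d (3.14) and Uty (3.30) had a p under 0.05 in the opposite direction. No homozygous library exceeded 1.83 for these genes, so such positive values came from the fit and not from higher counts. Without the covariate, Eif2s3y kept its p under 0.05 in the 6 omissions and Ddx3y lost it without column 5. Kdm5d lost it without columns 4 and 5, and Uty without columns 1, 3, 4 and 5. Over the whole Y chromosome 6 genes were tested, of which 5 were lower and 0 higher. Of the 10 X-linked genes tested from the inactivation centre or known to escape inactivation, all 10 were higher in homozygotes by sign, with a median of 0.42 that was 0.14 without column 4 and −0.08 with Xist as a covariate, and Xist (4.96 ± 1.54, SE) and the demethylase gene Kdm6a (0.45 ± 0.21, SE) had a p under 0.05. Kdm6a kept a p under 0.05 in 2 of the 6 omissions, with a lowest value of 0.11, and in edgeR and DESeq2 0 of the 10 genes had one. Xist kept it in the 6 omissions but had an unadjusted p of 0.057 in edgeR and 0.185 in DESeq2. The log2 difference of Xist was 2.24 in edgeR and 2.26 in DESeq2, against 4.96 in limma. Over the whole X chromosome 8 of 541 genes were higher and 4 lower, or 1.48% and 0.739%.

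Some protein-coding genes higher in homozygotes were picked for separate description after the values were seen. Mybpc1, a myosin-binding protein of slow skeletal muscle, had 15.8, 15.5 and 12.02 normalized counts in homozygotes and 0, 7.68 and 3.26 in heterozygotes (log2 difference 2.20 ± 0.65, SE). Hs3st3a1, a sulfotransferase that modifies heparan sulfate chains, had 16.6, 23.8 and 15.5 against 1.63, 6.83 and 8.97 (1.71 ± 0.51, SE). Lhcgr, the receptor of luteinizing hormone, had 8.28, 9.15 and 7.73 against 1.63, 0.854 and 2.45 (1.87 ± 0.58, SE). The heterozygous values of these 3 genes rested on few reads, and the wild-type means of 17.9, 17.1 and 10.4 were near the homozygous means of 14.46, 18.6 and 8.39. Glyctk, a glycerate kinase, had 95.6, 94.2 and 109.9 against 68.4, 67.5 and 60.4 (0.60 ± 0.18, SE). Tmem198b had 42.9, 43.9 and 39.5 against 21.2, 23.1 and 26.9 (0.81 ± 0.24, SE), and Mterf3, a regulator of mitochondrial transcription and ribosome assembly, had 186.7, 185.7 and 149.4 against 84.7, 137.5 and 134.6 (0.57 ± 0.19, SE). These 6 genes kept an unadjusted p under 0.05 in all omissions, but only Glyctk did with Xist as a covariate. No homozygous value of these genes overlapped a heterozygous one, because they were selected from genes without overlap.

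The genes that position the midbrain and isthmus are described by their values. En1, the homeobox gene of the midbrain and isthmus that is also needed by mdDA neurons, had 157.3, 187.5 and 194.1 normalized counts in homozygotes and 407.4, 201.5 and 172.1 in heterozygotes, with 274.1, 225.3 and 322.4 in the wild type. The groups overlapped, the difference rested on the high value of column 4, and the log2 difference of −0.43 ± 0.25 (SE; unadjusted limma p = 0.0978, exact permutation p = 0.40) was −0.06 in the weakest omission; DESeq2 gave −0.52 with an unadjusted p of 0.0356, and 1 of the 6 omissions gave a p under 0.05 in limma. Its paralogue En2 had 226.6, 292.7 and 243.9 against 407.4, 219.4 and 202.3, with column 4 again the highest and 351.7, 322.8 and 358.5 in the wild type (−0.05 ± 0.21, SE). Pax7, a paired-box factor of the dorsal midbrain, had 155.8, 228.7 and 134.8 against 299.9, 175.9 and 198.2, with 318.1, 254.0 and 220.8 in the wild type (−0.37 ± 0.22, SE), and a p under 0.05 in 2 of 6 omissions. Wnt8b, a Wnt ligand of the forebrain and midbrain, had 30.9, 13.7 and 15.5 against 9.78, 17.1 and 24.5 (0.21 ± 0.55, SE), while the wild type had 5.17, 8.42 and 1.47. Otx2, which marks the fore- and midbrain, differed by 0.10 ± 0.17, and Nkx2-2, the relative of Nkx2-9 in the ventral neural tube, by −0.38 ± 0.22 (SE), with 95% intervals of −0.26 to 0.46 and −0.85 to 0.09. Wnt1 and Fgf8, the signals of the isthmic organizer, were below the minimum and not tested, with means of 1.88 and 1.11 in homozygotes, 1.40 and 1.09 in heterozygotes and 8.02 and 0.468 in the wild type.

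Of the 16 isthmic and mid-hindbrain genes tested 0 were higher and 0 lower at an unadjusted p under 0.05, beside 1.49% and 1.15% of all genes (median log2 difference −0.04), and the same was true of 13 dorsal midbrain genes (0.12), 16 forebrain and diencephalic genes (−0.04), 10 rostral hindbrain and cerebellar genes (0.04) and 17 genes of the Nkx families and the hedgehog pathway (−0.02), beside a median of 0.02 over all genes tested. With 1 library left out each of these medians took both signs, from −0.23 to 0.06 for the isthmic, −0.13 (without column 4) to 0.24 for the dorsal midbrain, −0.31 (without column 4) to 0.13 (without column 6) for the forebrain, −0.04 to 0.06 for the hindbrain and −0.12 to 0.02 for the Nkx and hedgehog genes. In the edgeR test 0 genes of these 5 lists had an unadjusted p under 0.05, and in DESeq2 only En1 did. Summed over the list, the isthmic genes ranged from 1720 to 2151 normalized counts in homozygotes and from 1644 to 2891 in heterozygotes.

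**Figure D4:**
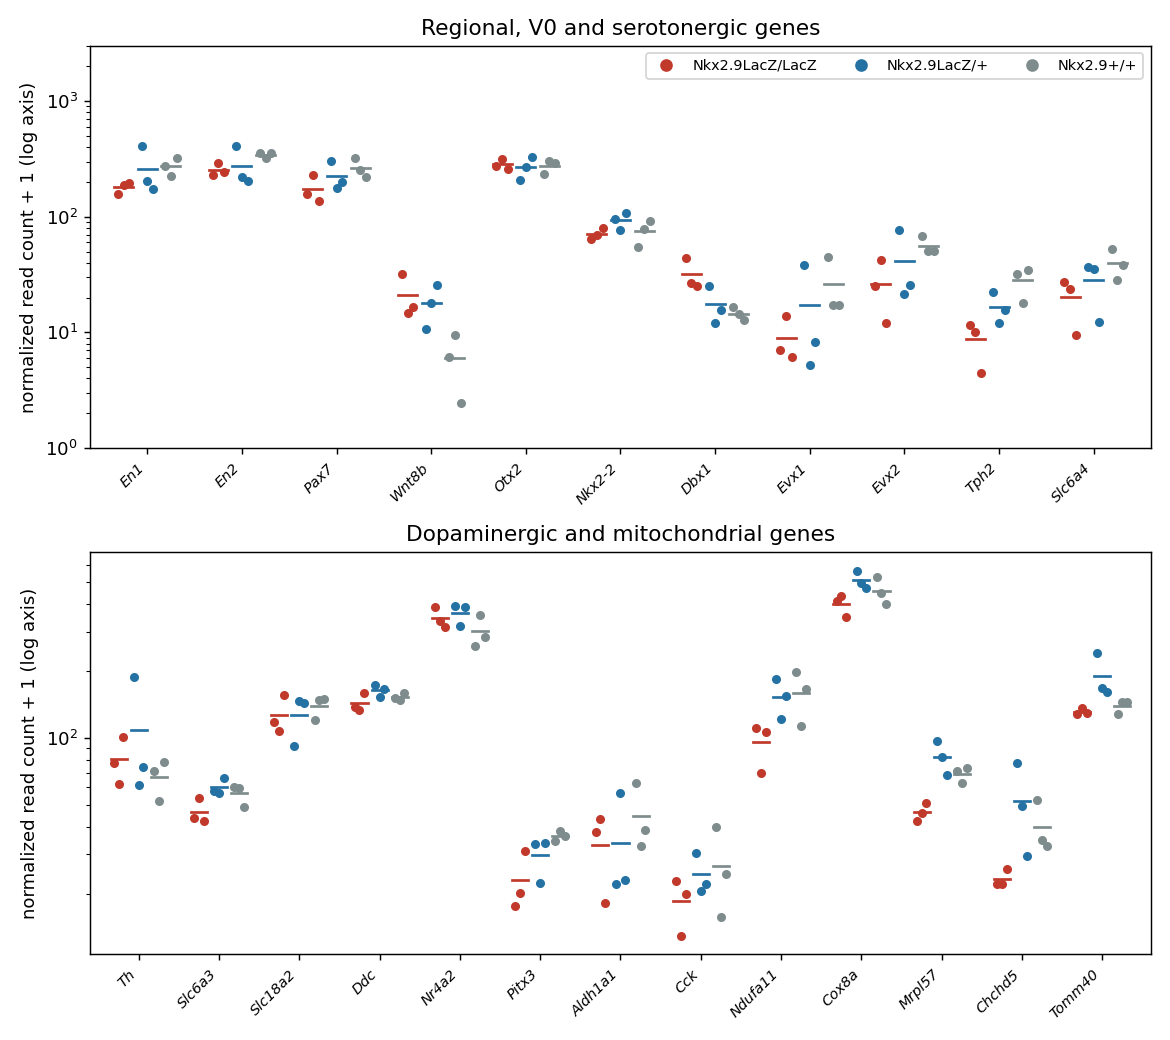
Normalized read counts plus 1 (y axis, log scale) of regional, V0 and serotonergic genes (upper panel) and of dopaminergic and mitochondrial genes (lower panel), with 1 point per library and a bar at each group mean. The heterozygous points of En1, En2 and Th include 1 high library, whereas those of Tph2, Slc6a3, Ndufa11 and Cox8a all lie above the homozygous points.

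The mdDA genes were well above the minimum, and 0 of 23 had an unadjusted p under 0.05 in limma, beside 2.64% of all genes. Th, tyrosine hydroxylase, had 76.0, 61.3 and 100.5 normalized counts in homozygotes and 187.4, 60.6 and 73.4 in heterozygotes (69.8, 51.2 and 77.3 in the wild type), so the groups overlapped (log2 difference −0.28 ± 0.33, SE, 95% interval −0.98 to 0.43). Slc6a3, the dopamine transporter, had 42.9, 53.0 and 41.2 against 57.0, 55.5 and 65.3, with 59.5, 58.9 and 47.8 in the wild type. These values did not overlap, and the log2 difference was −0.37 ± 0.21 (SE; p = 0.102, limma unadjusted; exact permutation p = 0.10, the smallest that the design allows), with a 95% interval of −0.83 to 0.08. Pitx3, a homeobox factor of mdDA differentiation, had 16.6, 19.2 and 30.1 against 32.6, 21.3 and 32.6 (−0.40 ± 0.30, SE), and Cck, the peptide of a caudal mdDA subset, differed by −0.42 ± 0.38 (SE). The nuclear receptor gene Nr4a2 differed by −0.08 ± 0.15, the vesicular transporter gene Slc18a2 by 0.01 ± 0.21, the decarboxylase gene Ddc by −0.19 ± 0.15 and Aldh1a1, a retinoic acid enzyme of rostral mdDA neurons, by 0.01 ± 0.41 (all SE). Of the 23 mdDA genes 17 were lower by sign, beside 7973 of 16993 among all genes, and the median log2 difference was −0.07, from −0.19 (without column 6) to −0.04 (without column 4) in the omissions; edgeR gave 0 genes and DESeq2 1, En1. Fewer cells of a type and less RNA per cell cannot be told apart in such tissue libraries.

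Among serotonergic genes Tph2, the rate-limiting enzyme of serotonin synthesis in the brain, had 10.5, 9.15 and 3.44 normalized counts in homozygotes, 21.2, 11.1 and 14.7 in heterozygotes and 31.0, 16.8 and 33.9 in the wild type. The homozygous values lay below the heterozygous ones, close at 10.5 and 11.1, with a log2 difference of −1.01 ± 0.46 (SE; unadjusted limma p = 0.0436, exact permutation p = 0.10). The unadjusted p was 0.0688 in edgeR and up to 0.216 in the omissions, where it was over 0.05 in 3 of 6 (without columns 3, 4 and 6). Slc6a4, the serotonin transporter, had 26.3, 22.9 and 8.59 against 35.9, 34.2 and 11.4, values that overlapped (−0.45 ± 0.46, SE). Fev, the transcription factor that specifies serotonergic neurons, differed by 0.03 ± 0.67 (SE) at mean counts of 3.94 and 4.48. Of 8 serotonergic genes tested 0 were higher and 1 lower, beside 1.49% and 1.15% of all genes. The list median was −0.07, from −0.23 (without column 5 or column 6) to −0.0013 (without column 2) in the omissions and 0.14 with Xist as a covariate.

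The V0 interneuron genes had the lowest list median outside the Y chromosome, at −0.54 over 8 genes, with a range in the omissions from −0.91 (without column 5) to −0.12 (without column 4). Dbx1, a homeobox gene of the progenitors of V0 neurons, was the one of the 8 with a p under 0.05, beside 2.64% of all genes, and was higher, with 42.9, 25.6 and 24.0 in homozygotes and 24.4, 11.1 and 14.7 in heterozygotes, with 15.5, 13.3 and 11.8 in the wild type (0.87 ± 0.38, SE). Its p was over 0.05 without columns 1, 5 and 6, and edgeR and DESeq2 each gave 2 genes of this list. Evx1, which specifies the ventral V0 neurons, had 6.02, 12.8 and 5.15 against 37.5, 4.27 and 7.34, so that its high value was again that of column 4. Evx2 likewise had 24.1, 41.2 and 11.2 against 76.6, 20.5 and 24.5. The noncoding Evx1os differed by −1.16 ± 0.61 and the corepressor gene Skor1 by −1.79 ± 1.03 (SE), with a p under 0.05 in 2 and 1 of the 6 omissions.

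Other neuronal and progenitor lists held few genes with a p under 0.05, beside 2.64% of all genes. In limma 0 genes had one among 15 GABAergic, 11 glutamatergic and red nucleus, 7 oculomotor and cholinergic, 20 Wnt, 19 Notch and proneural, 16 radial glial and 9 oligodendrocyte lineage genes, or in the single noradrenergic gene tested; edgeR and DESeq2 each gave 1 such gene, of the Wnt list. The GABAergic selector Gata3, for instance, had 488.5, 554.3 and 481.8 normalized counts in homozygotes and 500.3, 478.2 and 452.8 in heterozygotes. Of 26 proliferation genes 1 was lower, Ccne1, the cyclin of S-phase entry, with 12.8, 12.8 and 1.72 against 22.8, 19.6 and 14.7, which kept it in 3 of 6 omissions (not without columns 3, 4 and 5), while edgeR and DESeq2 gave 0 genes of this list. Of 32 axon guidance genes 1 was higher, the Eph receptor gene Epha3, with 261.2, 261.6 and 266.2 against 158.1, 255.3 and 206.4 (0.37 ± 0.16, SE), a difference that kept a p under 0.05 in only 1 of 6 omissions. Of 25 neuronal cytoskeletal genes 0 and of 23 synaptic vesicle and granule genes 1 had a p under 0.05, the granule protein gene Pcsk1n (−0.33 ± 0.14, SE), whose groups overlapped and whose p was over 0.05 without columns 2, 4 and 6, and 19 of the 23 synaptic genes were lower by sign (7973 of 16993 among all genes). Of 25 chromatin genes the Polycomb methyltransferase Ezh2 was higher (0.38 ± 0.16, SE), and of 24 imprinted genes the splicing factor gene Zrsr1 was higher (0.49 ± 0.22, SE). Ezh2 lost its p under 0.05 in 2 of 6 omissions (columns 2 and 4) and Zrsr1 in 4 (columns 1 to 4), and edgeR and DESeq2 gave 0 imprinted genes.

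Nuclear-encoded genes of the respiratory chain were the list with the most lower genes apart from the Y-linked ones. Of 75 tested 0 were higher and 4 lower at an unadjusted p under 0.05, beside 1.15% lower among all genes, and 57 were lower by sign, beside 7973 of 16993 genes in all, with a median of −0.11. Ndufa11, a subunit of complex I, had 109.9, 68.6 and 105.6 normalized counts in homozygotes and 182.5, 121.2 and 153.4 in heterozygotes, with 196.5, 112.3 and 164.9 in the wild type (−0.69 ± 0.23, SE). Cox8a, a subunit of complex IV, had 411.7, 431.7 and 348.7 against 563.9, 496.1 and 468.3 (−0.36 ± 0.14, SE), and in neither gene did the groups overlap; the p of Ndufa11 was over 0.05 without column 2 and that of Cox8a without column 3. Cox5b (−0.43 ± 0.18, SE) and Ndufa8 (−0.51 ± 0.22, SE; named after its values were seen) overlapped, with column 4 the highest in both, and Cox5b lost its p under 0.05 without columns 2, 3 and 4. Tomm40, the channel for import of proteins into mitochondria, also named afterwards, had 127.2, 135.4 and 128.8 against 239.6, 167.4 and 160.7 (−0.51 ± 0.17, SE). The list median ranged in the omissions from −0.23 (without column 1) to −0.03 (without column 4). Of 85 cytosolic ribosomal protein genes 1 was higher, Rpl7 (0.27 ± 0.13, SE), and 2 were lower, Rpl29 (−0.39 ± 0.18, SE) and Rps27l (−0.58 ± 0.27, SE), and 71 were lower by sign with a median of −0.13, which ranged in the omissions from −0.21 (without column 1) to −0.04 (without column 3 or column 4). Rpl7 (without columns 1, 2, 4 and 5) and Rpl29 (2, 3, 4 and 6) lost their p under 0.05 in 4 of 6 omissions and Rps27l in 5, and with Xist as a covariate Rpl7 differed by 0.04; Rps27l had no p under 0.05 in edgeR or DESeq2. Both families have processed pseudogenes that can share reads with them. Of 61 replication-dependent histone genes 0 had a p under 0.05 in limma and 1 each in edgeR and DESeq2, and their median was −0.13 with all libraries and from −0.42 (without column 1) to 0.09 (without column 4) in the omissions; no mitochondrially encoded transcript was in the tested set.

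Markers of non-neural cells that dissected tissue can hold were compared in the same way. Of 8 microglial genes 1 was lower, the complement gene C1qb, with 12.8, 7.32 and 1.72 normalized counts in homozygotes and 17.9, 12.8 and 23.7 in heterozygotes (−1.46 ± 0.55, SE), but its partner genes C1qa and C1qc differed by −0.14 ± 0.53 and −1.02 ± 0.59 (SE) and P2ry12 by 0.42 ± 0.46 (SE). C1qb lost its p under 0.05 without columns 3 and 6. The summed microglial list ranged from 117.4 to 135.4 in homozygotes and from 128.9 to 161.3 in heterozygotes. Of 10 meningeal and mesenchymal genes 1 was lower, the forkhead gene Foxc1, with 10.5, 12.8 and 12.9 against 24.4, 21.3 and 18.8 (−0.78 ± 0.32, SE), a p over 0.05 without columns 1, 4 and 5, while the list median was 0.21 (0.08 to 0.33 in the omissions). Blood (9 genes), endothelial and pericyte (15), choroid plexus (7), muscle and cartilage (7), immediate early and stress (16) and metallothionein (2) genes had 0 members with a p under 0.05 in limma, edgeR or DESeq2. Over all 38 lists with tested members, 26 of 755 different genes (3.44%) had a p under 0.05, beside 2.64% of all genes tested.

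The leading genes differed between the directions in the kind of gene. Of 13323 protein-coding genes 124 (0.931%) were higher and 168 (1.26%) lower at an unadjusted p under 0.05, with a median log2 difference of 0.00. Of 1182 TEC entries 53 (4.48%) were higher and 4 (0.338%) lower with a median of 0.27, of 586 antisense transcripts 20 were higher and 2 lower (0.17), of 462 lincRNAs 10 and 3 (0.14), of 247 processed transcripts 13 and 0 (0.10) and of 116 sense-intronic transcripts 2 and 1 (0.21). Counted as 1 set, 98 of these 2593 non-coding genes (3.78%) were higher and 10 (0.386%) lower, beside 1.49% and 1.15% of all genes. The direction was the same without each of the 6 libraries, with 48 to 158 higher and 9 to 12 lower and medians of 0.14 to 0.24, and in edgeR (110 and 17), DESeq2 (80 and 13), upper-quartile (90 and 11) and quantile normalization (88 and 28).

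Protein-coding genes of the same level were more evenly divided below a mean count of 50. At mean counts from 20 to 50, 38 of 578 non-coding genes were higher and 1 lower (median 0.22), against 29 and 27 of 1897 protein-coding genes (median −0.01). At mean counts from 5 to 10 the non-coding genes had 20 higher (2.01%) and 5 lower (0.503%) of 995. The protein-coding genes of that level had 13 and 16 of 999, beside 1.49% and 1.15% of all genes. At mean counts of 50 and more 15 of 240 non-coding genes were higher and 1 lower. There 64 of 9389 protein-coding genes were higher and 108 lower, so these leaned to lower. Of the non-coding genes, 1011 overlapped a protein-coding gene on the same strand (43 higher, 2 lower, median 0.27), 962 lay opposite one (36 and 4, 0.18) and 620 lay outside (19 and 4, 0.15). In that order 4.25%, 3.74% and 3.06% were higher and 0.198%, 0.416% and 0.645% lower. As a share of reads the 5 classes together took 4.12%, 4.06% and 4.51% in homozygotes, 3.98%, 3.75% and 3.61% in heterozygotes and 3.995%, 3.83% and 3.89% in the wild type. The homozygous shares did not overlap the heterozygous ones (exact permutation p = 0.10), but without Xist, itself a lincRNA, they were 4.01%, 3.95% and 4.38% against 3.98%, 3.75% and 3.54% and overlapped (exact permutation p = 0.20). With Xist as a covariate 219 of the 2593 genes were higher and 19 lower.

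Transcript length moved with the direction among protein-coding genes. In the 2667 genes of shortest exonic length (96 to 2683 bases) 16 genes were higher (0.600%) and 55 lower (2.06%), median −0.07. In the 2665 of longest (7962 bases and more) 21 were higher (0.788%) and 13 lower (0.488%), median 0.04. Beside these stand 1.49% higher and 1.15% lower among all genes. The library in column 4 stood apart here, with a median deviation from the mean of all libraries of 0.19 for the shortest and −0.14 for the longest genes, while the other 5 libraries lay between −0.09 and 0.06 and between −0.01 and 0.08. Without column 4 the counts were 37 higher and 29 lower among the shortest genes and 23 and 23 among the longest, with medians of −0.0037 and −0.03. Among all 16993 genes 318 were then higher and 175 lower. Over all 6 omissions the medians ranged from −0.12 to −0.0037 for the shortest and from −0.03 to 0.08 for the longest genes. Chchd5, Ndufa11, Cox8a, Cox5b, Rpl29 and Rps27l are among these short genes, with exonic lengths of 1727, 1092, 619, 1587, 1126 and 816 bases, and of these Chchd5, Ndufa11 and Cox8a kept a p under 0.05 without column 4.

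**Figure D5:**
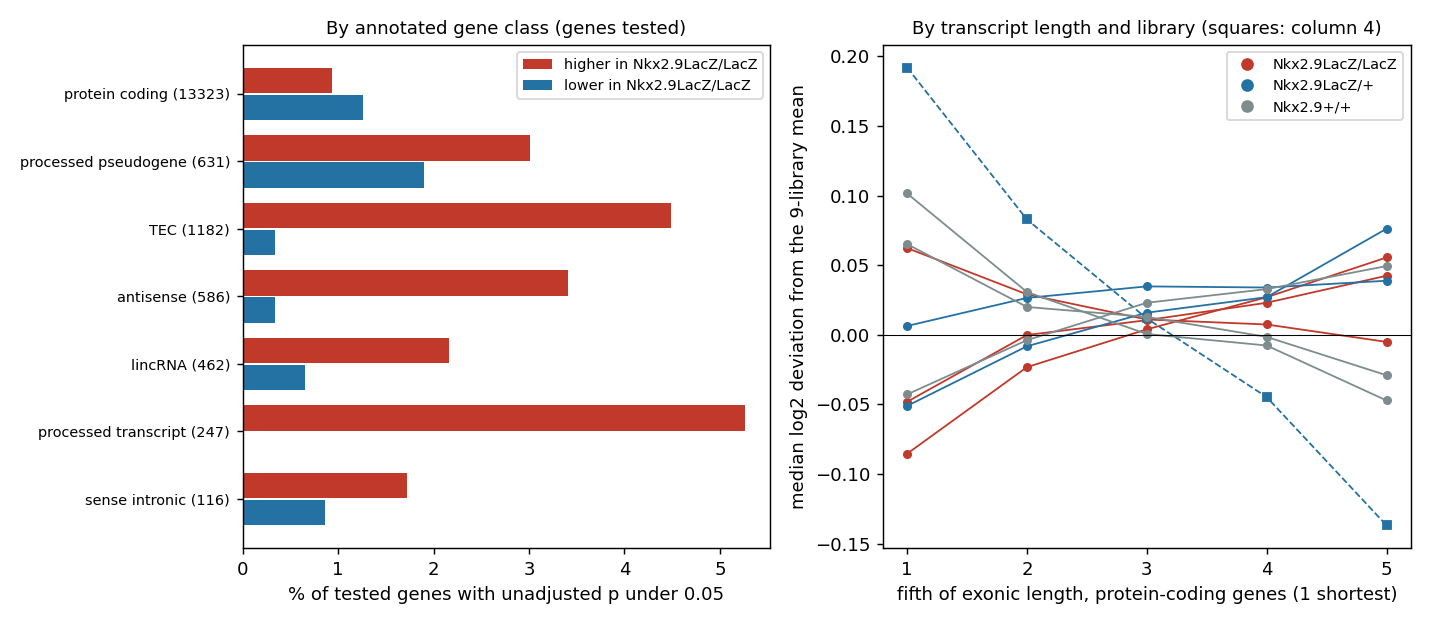
Left, the percentage of tested genes of each annotated class with an unadjusted p under 0.05 (x axis), higher (red) or lower (blue) in homozygotes. Right, the median log2 deviation of each library from the mean of all 9 (y axis) for protein-coding genes in 5 groups of exonic length (x axis), where column 4 (squares) runs from 0.19 for the shortest to −0.14 for the longest genes.

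Genes near the targeted locus were examined because linked sequence can differ between genotypes. Of 53 genes tested within 5 Mb of Nkx2-9, 1 was higher and 1 lower at an unadjusted p under 0.05, with a median log2 difference of 0.04 (−0.04 to 0.11 in the omissions), beside 1.49% higher and 1.15% lower among all genes. Ap4s1, a subunit of the adaptor complex AP-4, had 54.2, 35.7 and 53.2 normalized counts in homozygotes and 58.7, 72.6 and 80.0 in heterozygotes (−0.56 ± 0.22, SE), with a p over 0.05 without columns 2, 5 and 6. Srp54c, a copy of the gene for the 54-kDa subunit of the signal recognition particle, had 81.3, 58.5 and 55.8 against 27.7, 47.8 and 49.0 (0.66 ± 0.30, SE), with a p over 0.05 without columns 1, 2 and 4. Since its copies Srp54a and Srp54b lie beside it with log2 differences of −0.62 ± 0.32 and 1.04 ± 0.51 (SE), the division of reads among the 3 copies is uncertain.

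The letters TNAAGTG were searched on both strands in windows of 300 bases (250 before and 50 after each RefSeq start). They were found in 3790 of 32851 promoters (11.5%). Of the genes with a p under 0.05 that had a promoter in the table, 9 of 121 higher genes (7.44%) and 10 of 137 lower genes (7.30%) held a match in at least 1 promoter, beside 1164 of 11136 tested genes (10.5%). The upstream bases of Glyctk, Gm16958, Nkx2-2, Wnt8b and Pitx3 held 1 match each, as did 1 of the 3 promoters of Hpca and 2 of the 4 promoters of Ank2, and those of Kansl2 held 2, which describes the letters and not binding.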

How the data were processed

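RNA was sequenced from 9 libraries (3 per genotype). By the study's methods, rRNA-depleted RNA of E14.5 midbrain was sequenced paired-end, aligned with Hisat2 to mm10, counted per gene with featureCounts and normalized with DESeq2; the labels cite an Illumina protocol for mRNA, and versions are not given in the sources used here. The deposited table holds the authors' normalized read signal, that is counts divided by size factors. Tables of the authors' own comparisons (fold changes and p-values) were not used. The reads behind each value were recovered: 100% of 210686 values above 0 came out whole within 0.01 reads. Gene models were GENCODE vM21 on GRCm38 (51719 of 51912 identifiers matched).

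Columns name genotype and a running number from 1 to 9, with 1 to 3 homozygous and 4 to 6 heterozygous. log2(normalized count + 1) of all 9 libraries was fitted with limma 3.58.1 (trend) in R 4.3.3, with 95% intervals and Benjamini-Hochberg adjustment over 16993 genes with a mean of at least 5. Fold changes are on this scale, which understates changes of low genes. The recovered reads were tested with the edgeR 4.0.16 quasi-likelihood test and DESeq2 1.42.0 as alternatives (5 adjusted p were NA in DESeq2). On simulated data for this comparison over 16993 genes, limma at the adjusted threshold found 57 of 100 genes changed by 1 and 90 of 100 changed by 2 on the log2 scale, and 12 of the unchanged genes. The simulated reads were drawn gene by gene, without a sex split or a shift of column 4. Of unchanged genes 4.28% had an unadjusted limma p under 0.05, against 2.64% of all genes in the data. The simulated shares may therefore not hold for the real libraries. Values set against each other in 3 and 3 libraries were tested by exact two-sided permutation. Libraries of a group differed by 5.01 to 14.8 times the sampling noise (chi-square per degree of freedom), so none was a copy; p-values measure the spread between these pools. Named genes were Nkx2-9, per direction the 10 of smallest unadjusted p among genes with a symbol and no overlap, list members with an unadjusted p under 0.05 (at most 3 for lists over 20), sex-linked genes and genes of the study. All others, that is host and overlapping genes, the protein-coding genes listed apart, Ndufa8, Tomm40, Srp54a, Srp54b and further list members (Gata3, Slc18a2, Ddc, Fev, Slc6a4, Evx1, Evx2, Evx1os, Skor1, C1qa, C1qc and P2ry12), were named after their values were seen. The members and lists were chosen with earlier results of these data known. The result of 1 list is not reported here.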

Additional observations from a re-analysis of the deposited data

How the results depend on the processing

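No paired analysis was possible because the columns carry a genotype and a running number but no replicate number. The number of genes with an unadjusted p under 0.05, 449 of 16993 in limma, was 1132 with no minimum, 288 with a minimum of 20, 848 in edgeR with no minimum (chosen after seeing the data), and 293 to 740 with 1 library left out; it stayed within 1.5 times under the other alternatives. The number at an adjusted p under 0.05 was 0 under all of these except edgeR with no minimum, where it was 18; the 18 were 5 Y-linked genes, Xist, 8 small RNAs and 4 other genes. Nkx2-9 ranged from −0.27 (without column 4) to 1.13 on the log2 scale with 1 library left out. With Xist as a covariate (no value is given for Xist itself, which is the covariate), signs turned for Eif2s3y (1.83), Ddx3y (2.01), Kdm5d (3.14), Uty (3.30), Srp54c (−0.039), Ddx3x (−0.052), Utp14a (−0.43), Eif2s3x (−0.25), Jpx (−0.12), Kdm5c (−0.19), En1 (0.050), En2 (0.24), Th (0.028) and Wnt8b (−0.96); the cause was not tested. En2 was 0.025 with log2 total reads as a covariate, and Aldh1a1 was −0.039 with quantile normalization, −0.075 in edgeR and −0.067 in DESeq2. With 1 library left out, the ranges that crossed 0 were −0.065 to 0.39 (Ddx3x), −0.016 to 0.10 (Utp14a), −0.24 to 0.26 (En2), −0.59 to 0.22 (Th), −0.079 to 0.26 (Otx2), −0.23 to 0.45 (Aldh1a1) and −0.13 to 0.50 (Wnt8b). Over 63 named genes and these settings, 937 of 1123 values kept both sign and side of the unadjusted threshold, 138 lost it and 17 gained it with the same sign, and 31 changed sign. The depth of column 4, 2584074 reads, limits genes with few reads.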
